A study of Mus musculus with 4 samples.

Results

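The genes described here are 6 WNT ligands of the gut stroma, *Wnt2*, *Wnt2b*, *Wnt4*, *Wnt5a*, *Wnt5b* and *Wnt9a*, of 28692 genes in the count tables. They were chosen by name, and their UMIs (unique molecular identifiers, each counting 1 captured mRNA molecule) were read by intestine and by cell classes set from other marker genes. WNT proteins are lipid-modified secreted signals that bind Frizzled receptors on neighboring cells. Ligands called canonical stabilize β-catenin and keep intestinal stem cells dividing at the crypt base, whereas those called non-canonical act through receptors such as ROR2 and RYK on cell shape, polarity and movement, and can oppose the canonical branch. In the gut wall both kinds come in large part from fibroblasts (FB) beneath the epithelium. Here *Wnt2*, *Wnt2b* and *Wnt9a* were grouped as canonical, and *Wnt4*, *Wnt5a* and *Wnt5b* as non-canonical as in the study. *Wnt4* can act through either branch, so each contrast of the groups is also given with *Wnt4* moved.

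Mesenchymal stromal cells (MSC) were taken from lamina propria (LP) of untreated C57BL6/Nrj female mice aged 8 to 10 weeks, and profiled by droplet single-cell RNA-seq. Small intestine and colon gave 2 libraries each, from 2 independent experiments in which 3 mice were pooled, so that single animals cannot be told apart within a library. The muscle coat had been removed, and cells were sorted as alive, negative for CD45, Ter119, CD31, BP3, EpCAM and L1CAM, and positive for integrin β1. No allele or treatment set the groups apart, and the organ was the only labelled difference.

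Library depth ranged from 14341443 to 52269372 UMIs, and 30697 of 34983 barcodes were kept as cells. Replicate 1 libraries held fewer but deeper cells (1808 in small intestine and 2386 in colon, with medians of 6949.5 and 8810 UMIs) than replicate 2 libraries (14350 and 12153 cells, 2734.5 and 3881 UMIs). The replicate number also went with the Cell Ranger version in the file headers, 3.0.2 or 3.1.0. Either a 3′ or a 5′ kit was used, which is not stated for each library, so that replicate number, depth and software version cannot be told apart. Libraries of the same replicate number shared 8 and 69 barcodes between the organs.

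Levels are given as CPM, the UMIs of a gene per 1000000 UMIs summed over all cells of a class in a library. Because UMIs count molecules, levels of different genes were compared without a length correction. FB with high *Pdgfra* and its companion markers (PDGFRαhi FB, the subepithelial cells) numbered 146 and 1087 in the small intestinal and 573 and 2639 in the colonic libraries, for replicates 1 and 2. CD81+ FB, found around vessels and in the submucosa, numbered 411, 2510, 235 and 1931 in the same order, and the remaining FB, which carry FB markers but pass neither gate, numbered 367, 7697, 680 and 4964. Smooth muscle cells (SMC) numbered 44, 107, 244 and 712. Between 1.05% and 4.5% of the cells of a library lay within 0.1 of the PDGFRαhi cutoff, and between 4.28% and 10.4% within 0.1 of the CD81+ cutoff. Genes kept out of the gates followed the class names. *Bmp3*, a BMP ligand, was at 203.4, 219.1, 125.3 and 118.1 CPM in PDGFRαhi FB and at no more than 5.98 CPM in the other FB, and *Grem1*, a BMP antagonist, was highest in CD81+ FB at 667.2, 825.6, 871.9 and 527.0 CPM.

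Markers of other cell types differed in level. In the FB classes summed endothelial markers (6 genes) lay between 0.7265 and 7.147 CPM, with at least 1 of 6 seen in each library. Summed immune markers (5 genes) lay between 1.184 and 12.02 CPM there. In SMC the ranges were 0 to 3.919 CPM and 1.352 to 19.6 CPM. The pericyte list (6 genes) moved with the organ. It summed to 1036 and 833.3 CPM in small intestinal remaining FB against 84.99 and 78.95 CPM in colonic ones, and *Rgs5* supplied 90.0% of these UMIs, while *Higd1b* was at 0 in PDGFRαhi and CD81+ FB. In PDGFRαhi FB this list summed to 212.9 and 283.0 CPM in small intestinal and 27.29 and 41.98 CPM in colonic libraries, and in CD81+ FB to 470.2 and 453.5 against 27.17 and 35.05 CPM. PDGFRαhi FB also held the SMC list (5 genes) at 446.1 and 469.2 CPM in small intestinal against 142.2 and 144.0 CPM in colonic libraries, and the list of interstitial cells of Cajal (3 genes) at 5.086 and 4.703 against 67.49 and 48.54 CPM. The part of these lists in the organ comparisons below was not tested.

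The members lie at separate loci of GRCm38, apart from *Wnt2* and *Wnt5b*, which share a chromosome. *Wnt2* spans chr6:17988940-18030585 on the minus strand, *Wnt5b* chr6:119432531-119544347 (minus), *Wnt2b* chr3:104945272-104961921 (minus), *Wnt4* chr4:137277489-137299726 (plus), *Wnt5a* chr14:28504750-28527448 (plus) and *Wnt9a* chr11:59306928-59333552 (plus). All 6 are protein-coding genes. *Wnt5a* overlaps the antisense gene *Gm2670* and *Wnt5b* overlaps *Fbxl14*, both on the other strand. *Wnt2b* overlaps the intronic *Gm43846* on its own strand. How reads in the shared bases were assigned was not tested.

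Of the 6 members, 5 had a promoter window in the RefSeq table (32851 windows of GRCm38.p6). The 2 shown are those of the ligands that passed the test between colon and small intestine, each given 5′ to 3′ on the minus strand and ending at the last base before the annotated gene.
Wnt2, chr6:18030586-18030695: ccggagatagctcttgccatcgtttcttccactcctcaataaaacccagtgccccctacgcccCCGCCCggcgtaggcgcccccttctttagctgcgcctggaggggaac
Wnt5b, chr6:119544348-119544597: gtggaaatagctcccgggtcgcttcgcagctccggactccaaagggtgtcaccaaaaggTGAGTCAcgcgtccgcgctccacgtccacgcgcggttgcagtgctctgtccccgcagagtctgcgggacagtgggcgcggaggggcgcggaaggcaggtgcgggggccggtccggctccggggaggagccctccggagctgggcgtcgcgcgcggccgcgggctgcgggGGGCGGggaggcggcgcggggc
Capitals mark matches on either strand. The motifs searched were the TATA box core (TATAAA), the GC box (GGGCGG), the TCF/LEF core (CTTTGA), the forkhead core (GTAAACA), the AP-1 site (TGACTCA) and the GLI site (GACCACCCA). The *Wnt2* window held 1 GC box, which 11.6% of all windows of 110 bases hold. The *Wnt5b* window of 250 bases held 1 GC box, found in 32.7% of windows of that length, and 1 AP-1 site, found in 4.46%. The *Wnt5b* window was 75.2% G and C against a median of 52.4%, and that of *Wnt2* 62.7% against 50.0%. A match in letters is not a measured binding site.

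*Wnt5a*, the ligand with which ROR2 is best known to signal, was concentrated in PDGFRαhi FB. Its level in PDGFRαhi FB was 187.4 and 223.8 CPM in small intestine and 327.4 and 324.9 CPM in colon, in replicates 1 and 2. CD81+ FB held 17.2 and 25.1 CPM in small intestine and 17.3 and 35.0 CPM in colon. Each PDGFRαhi value was thus above every value of the other classes, and colonic values did not overlap small intestinal ones. Remaining FB (11.2, 25.1, 20.5 and 32.4 CPM) and SMC of small intestine (15.6 and 23.5 CPM) overlapped the range of the CD81+ FB, and colonic SMC stood higher, at 47.0 and 57.7 CPM. In order of the levels, PDGFRαhi FB led, while CD81+ FB and remaining FB overlapped.

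*Wnt4*, known from kidney and gonad development, was shared between PDGFRαhi FB and remaining FB. PDGFRαhi FB held 167.1 and 332.3 CPM in small intestine and 150.1 and 347.1 CPM in colon, so that the organs overlapped and replicate 2 was the higher in each. Remaining FB held 61.2 and 106.0 CPM in small intestine and 181.7 and 336.0 CPM in colon, without overlap between the organs. This leftover class mixes FB subsets, and by the paper the subsets are not the same in colon and small intestine. CD81+ FB held 0.793 and 5.62 CPM in small intestine against 62.8 and 34.2 CPM in colon. The colonic value depended on how the class was set. In colonic cluster 0, named CD81+ FB, *Wnt4* was at 3.23 and 12.9 CPM. Of 5087 gated CD81+ FB over all libraries 4031 lay in a cluster of that name. The order in small intestine was therefore PDGFRαhi FB, remaining FB and CD81+ FB without overlap of neighbors, whereas in colon the ranges of PDGFRαhi FB and remaining FB overlapped.

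*Wnt5b*, the close relative of *Wnt5a*, was a colonic ligand in each FB class. It was at 13.8 and 8.23 CPM in small intestinal PDGFRαhi FB and at 83.3 and 81.7 CPM in colonic ones. Remaining FB held 5.36 and 6.56 CPM in small intestine and 48.9 and 49.3 CPM in colon. CD81+ FB held 5.82 and 6.25 CPM in small intestine and 31.9 and 13.9 CPM in colon. Colonic values lay above small intestinal values in all 3 classes, and within small intestine the ranges of CD81+ FB and remaining FB overlapped.

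Among the canonical ligands, *Wnt2b*, which supports crypt stem cells in culture, was found in CD81+ FB and remaining FB of both organs. CD81+ FB held 76.7 and 19.2 CPM in small intestine and 71.2 and 11.8 CPM in colon. Remaining FB held 66.6 and 19.0 CPM in small intestine and 131.5 and 22.5 CPM in colon. In each of these pairs replicate 1 was the higher, and the organs overlapped. PDGFRαhi FB held 4.36, 1.18, 15.2 and 3.1 CPM, below the other FB classes of the same library in 4 of 4 libraries. The step between the replicates was unusual for this gene. On the log2(CPM + 5) scale the difference of replicate 2 to replicate 1 in remaining FB was −1.58 in small intestine and −2.31 in colon. Of 8384 genes 1.05% moved at least as far as the smaller of these steps, either up in both organs or down in both. Its relation to kit, depth or software version was not tested.

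*Wnt2*, known for its role with *Wnt2b* in lung and foregut outgrowth, was seen in colonic CD81+ FB and remaining FB. In colon it was at 38.4 and 42.9 CPM (82 and 345 UMIs) in CD81+ FB and at 31.7 and 27.1 CPM (187 and 520 UMIs) in remaining FB. In small intestine it was at 2.12 CPM in both libraries of CD81+ FB (8 and 17 UMIs). Remaining FB of small intestine held 0 and 9 UMIs, and a count of 0 allows up to 1.34 CPM in replicate 1. PDGFRαhi FB held 0 UMIs in both small intestinal libraries and 2 and 4 in the colonic ones, which is below 1 CPM. Colonic values were thus far above small intestinal ones in both classes without overlap.

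*Wnt9a* was low in each FB class. It was at 6.88, 9.62, 5.15 and 11.6 CPM in CD81+ FB, at 3.13, 3.93, 2.71 and 1.72 CPM in remaining FB, and at 2.18, 1.18, 0.969 and 0.820 CPM in PDGFRαhi FB. CD81+ FB were the highest FB class in each library, and the organs overlapped in CD81+ FB.

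**Figure D1:**
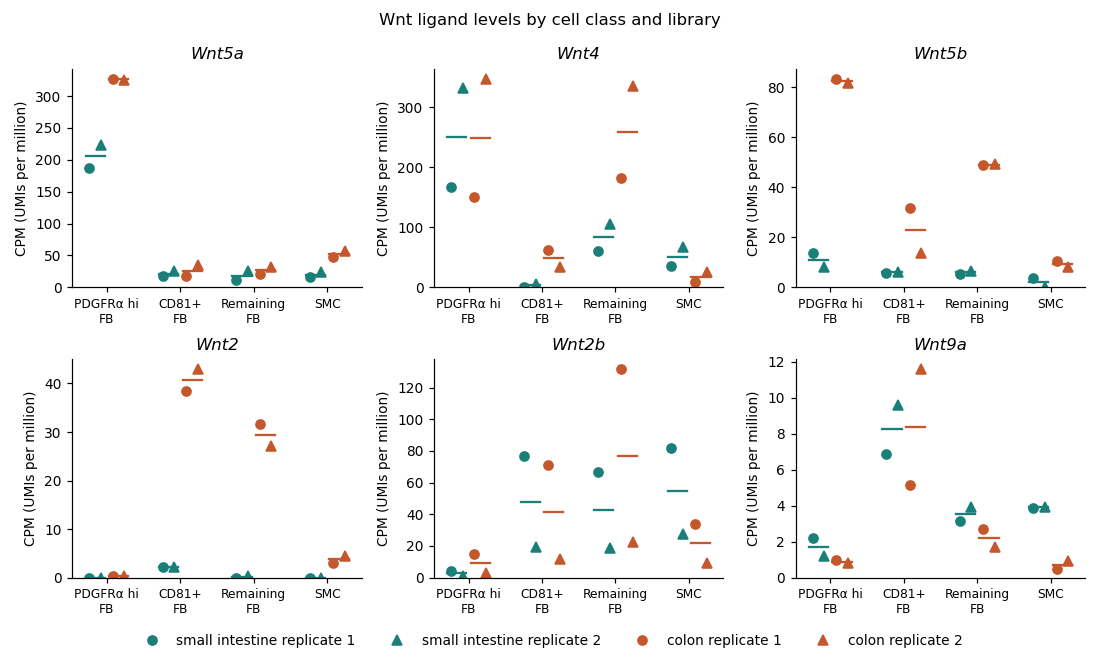
Levels of the 6 ligands (y axes, CPM, each panel with its own linear scale) in 4 cell classes (x axes). Points are libraries, colored by organ and shaped by replicate, and bars are means of 2 libraries. *Wnt5a* stood between 187.4 and 327.4 CPM in PDGFRαhi FB and at no more than 57.7 CPM in the other classes, and *Wnt2* was between 27.1 and 42.9 CPM in colonic CD81+ and remaining FB and at no more than 4.51 CPM in the others.

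The share of a ligand's UMIs that a class supplied also reflects how many cells it holds. PDGFRαhi FB were 8.08% and 7.57% of small intestinal cells and 24% and 21.7% of colonic cells. They supplied 66.8% and 36.9% of all *Wnt5a* UMIs in small intestine and 83.7% and 67.4% in colon. For *Wnt4* the share of PDGFRαhi FB was 54.6% and 24.5% in the small intestinal and 34.3% and 29.6% in the colonic libraries, and remaining FB supplied 32.5%, 63.1%, 39.6% and 50.1%. Remaining FB were the larger source of *Wnt4* in 3 of 4 libraries. These shares also carry the class sizes of the sort, so they describe the sorted cells and not the tissue. In these sums, with 1 value per class and library, fewer cells that express a gene and less RNA per cell cannot be told apart. Shares of single cells are given next.

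To compare single cells across depths, each cell was thinned to 2000 UMIs. *Wnt5a* was then seen in 28.1% and 34.0% of small intestinal and 38.2% and 40.4% of colonic PDGFRαhi FB (exact 95% intervals 21.0 to 36.1, 30.5 to 37.7, 34.2 to 42.4 and 38.5 to 42.4, counting error only). Endothelial cells left in the sort, which should lack it, showed *Wnt5a* in 0.639% of 313 cells of small intestine replicate 1 and in 0 of 224 cells of colon replicate 1, which allows a share of up to 1.63%. Their median depth before thinning was 4519 and 5086 UMIs, against 9566.5 and 10356 UMIs in PDGFRαhi FB. Colon replicate 2 held 24 endothelial cells with 6 *Wnt5a* UMIs before thinning, too few cells to set a background share there. Small intestine replicate 2 held 1 endothelial cell, without a *Wnt5a* UMI. *Wnt2* was seen in 5.31% and 7.08% of colonic CD81+ FB and in 0 of 405 and 8 of 2230 small intestinal CD81+ FB. Without thinning, it was seen in 25.1% and 13.7% of the colonic and in 1.95% and 0.677% of the small intestinal CD81+ FB. The 2 most abundant ligands of PDGFRαhi FB showed little link in single cells. *Wnt5a* was seen in 35.9%, 35.3%, 42.7% and 40.6% of the thinned PDGFRαhi FB with a *Wnt4* UMI, and in 25.2%, 33.1%, 37.0% and 40.3% of those without one. Cells with both ligands numbered 14, 102, 53 and 426.

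The next question was whether FB classes of the same library differ in these ligands. The quasi-likelihood test of edgeR was fitted to UMIs summed per class and library, with library as a block and p-values adjusted over all 12070 genes tested. Between PDGFRαhi FB and CD81+ FB, 38.8% of all genes passed an adjusted p of 0.05, so that a call in this contrast is common, and all 6 members passed it. The 3 non-canonical ligands were higher in PDGFRαhi FB, by a log2 fold change of 3.19 ± 0.20 (SE) for *Wnt5a* (adjusted p = 3.404e-06), 3.65 ± 0.81 for *Wnt4* (0.009637) and 1.31 ± 0.36 for *Wnt5b* (0.0193). The 3 canonical ligands were lower in PDGFRαhi FB, with a log2 fold change of −2.99 ± 0.36 for *Wnt2b* (adjusted p = 0.0002945), −7.13 ± 0.51 for *Wnt2* (3.711e-06) and −3.23 ± 0.38 for *Wnt9a* (9.674e-05). PDGFRαhi FB held 0, 0, 2 and 4 *Wnt2* UMIs, so that the size of the fitted *Wnt2* fold change is uncertain. The *Wnt4* call was lost without small intestine replicate 2 (adjusted p = 0.0604) or colon replicate 2 (0.05851), and the *Wnt5b* call without colon replicate 1 (0.1033).

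Between PDGFRαhi FB and remaining FB, 28.5% of all genes passed, as did 4 of the 6 members. *Wnt5a* was higher in PDGFRαhi FB (log2 fold change 3.42 ± 0.20, adjusted p = 6.9e-06), and *Wnt2b* (−3.23 ± 0.35, 0.0002673), *Wnt2* (−6.27 ± 0.51, 2.099e-05) and *Wnt9a* (−1.45 ± 0.41, 0.02507) were lower. The size of the fitted *Wnt2* fold change is again uncertain, since small intestinal remaining FB also held only 0 and 9 *Wnt2* UMIs. The *Wnt9a* call was lost without small intestine replicate 2 (adjusted p = 0.1406) or colon replicate 1 (0.08448). *Wnt4* (0.71 ± 0.68, 0.4989) and *Wnt5b* (0.63 ± 0.32, 0.1761) did not pass. Between CD81+ FB and remaining FB, 10.6% of all genes passed in edgeR and 1 member did, *Wnt9a*, which was higher in CD81+ FB (1.78 ± 0.30, adjusted p = 0.0046). *Wnt4* had a log2 fold change of −2.94 ± 0.76 there and missed the threshold (adjusted p = 0.05287), but it passed without colon replicate 1 (0.03132), with doublets kept (0.0484), with a stricter gate (0.00483), with classes from clusters (0.002435) and by DESeq2 (0.001939). *Wnt5a* passed with classes from clusters alone (0.91, 0.03259).

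**Figure D2:**
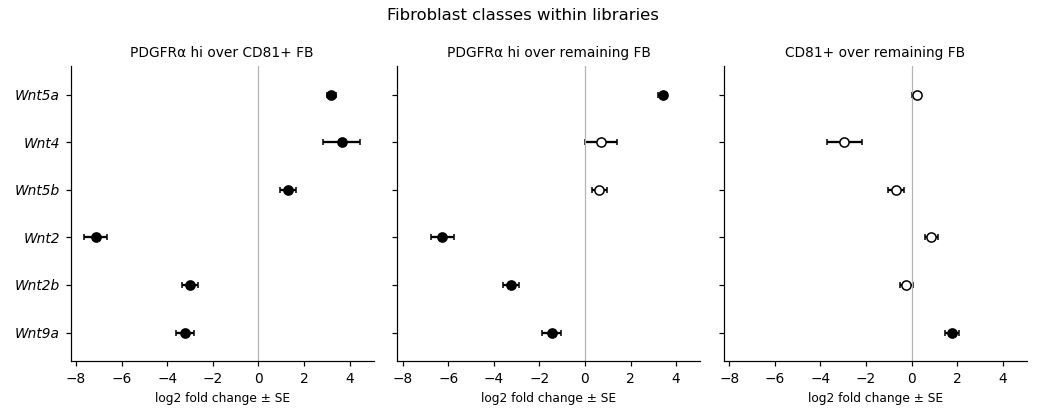
Log2 fold changes (x axes, ± SE) of the 6 ligands between FB classes within 4 libraries, from the edgeR fit with library as a block. Filled points passed an adjusted p of 0.05 and open points did not. Non-canonical ligands lie right of 0 and canonical ligands left of 0 in the contrast of PDGFRαhi with CD81+ FB, and *Wnt5a* is at 3.19 and 3.42 in the contrasts of PDGFRαhi FB.

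The comparison of the organs asked which ligands differ between colon and small intestine in the same FB class. Remaining FB are a leftover class, whose make-up differs between the organs. The paper names Igfbp5+ and Fgfr2+ FB in small intestine, and CD90+ and Fgfr2+ FB in colon. Each class was fitted alone over 2 libraries per organ, and few genes passed. On simulated data 6.67% to 21.1% of the calls of such a fit were false. In PDGFRαhi FB 1.57% of 11436 genes tested were called, and of the 4 members that passed the filter on low counts 1 was called, *Wnt5b*, higher in colon with a log2 fold change of 3.08 ± 0.36 (SE, adjusted p = 0.03669). Within replicate numbers its level was 6.04 and 9.92 times higher in colon. *Wnt5a* (0.81 ± 0.26, adjusted p = 0.2969), *Wnt4* (0.16 ± 0.57, 0.9892) and *Wnt2b* (1.94 ± 1.03, 0.5916) did not pass in this edgeR fit, although the *Wnt5a* values of the organs did not overlap. With replicate number as a block (the replicate block), edgeR called *Wnt5a* (adjusted p = 8.688e-05) and *Wnt2b* (0.003351). *Wnt2* and *Wnt9a* were too low to be tested there.

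In remaining FB 0.359% of 12815 genes were called, and 2 of the 6 members. *Wnt2* was higher in colon with a fitted log2 fold change of 6.27 ± 0.52 (adjusted p = 0.03606), at least 23.6 times in replicate 1, where the small intestine held no UMI, and 61.9 times in replicate 2. *Wnt5b* was higher with 3.03 ± 0.25 (adjusted p = 0.03606), or 9.13 and 7.51 times within replicate numbers. *Wnt4* (1.66 ± 0.47, adjusted p = 0.3351), *Wnt2b* (0.90 ± 0.97, 0.8942), *Wnt5a* (0.53 ± 0.48, 0.8659) and *Wnt9a* (−0.71 ± 0.47, 0.785) did not pass in edgeR without the replicate block. DESeq2 called *Wnt4* (adjusted p = 0.02283), and edgeR with the block called *Wnt4* (2.126e-05) and *Wnt2b* (0.04309). *Wnt4* was 2.97 and 3.17 times higher within replicate numbers. Remaining FB of the *Fgfr2*-high cluster of small intestine (cluster 2) held *Wnt4* at 129.7 and 297.6 CPM. Those of colon (clusters 3, 7 and 8) held 112.3 to 636.9 CPM. *Fgfr2*-low clusters held 0 to 47.8 CPM in small intestine and 185.5 to 434.6 CPM in colon. The part of this mix in the organ difference was not tested.

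In CD81+ FB 0.00863% of 11591 genes, which is 1 gene, was called, and none of the 6 members in this edgeR fit. The gene was *Lrat*, a retinol-storing enzyme named here after its value was seen, which was lower in colon (adjusted p = 0.03634). At an unadjusted p under 0.05, 1046 genes passed in that fit, among them *Wnt2*, *Wnt4* and *Wnt5b*. *Wnt2* had a log2 fold change of 4.15 ± 0.30 and just missed the threshold (adjusted p = 0.0565), with colonic levels 18.2 and 20.2 times higher within replicate numbers. DESeq2 called it (adjusted p = 5.938e-12). So did edgeR with a stricter gate (0.03485), classes from clusters (0.02587), no low count filter (1.315e-06) or a replicate block (6.961e-05). Its log2 fold change was 4.26 without colon replicate 1 and 4.02 without colon replicate 2. *Wnt4* (3.65 ± 0.77, adjusted p = 0.2027, and 3.393e-05 by DESeq2) and *Wnt5b* (1.75 ± 0.45, 0.2865, and 0.02441 with no low count filter) were higher in both colonic libraries. Neither passed in edgeR with the filter and no replicate block, while the block called *Wnt5b* (0.01734). In colonic cluster 0, named CD81+ FB, *Wnt4* was at 3.23 and 12.9 CPM and *Wnt5b* at 14.2 and 13.3 CPM. Small intestinal clusters 3 and 5 of that name held 0.458 to 6.1 CPM of *Wnt4* and 1.72 to 8.18 CPM of *Wnt5b*. *Wnt2b*, *Wnt5a* and *Wnt9a* stayed within a log2 fold change of −0.40 to 0.24.

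The calls in PDGFRαhi and remaining FB rested on both small intestinal libraries. Without small intestine replicate 1 the adjusted p was 0.09348 for *Wnt5b* in PDGFRαhi FB, and 0.05716 for *Wnt2* and 0.1446 for *Wnt5b* in remaining FB. Without small intestine replicate 2 the same values were 0.1942, 0.1471 and 0.2252, while the fold changes kept their direction. In SMC 0.623% of 8983 genes were called. None of the 3 members tested was called by DESeq2 or by edgeR without the replicate block. *Wnt5a* and *Wnt4* had an unadjusted p under 0.05 in that edgeR fit. *Wnt5a* had a log2 fold change of 1.43 ± 0.45 (adjusted p = 0.3689), *Wnt4* −1.52 ± 0.64 (0.5858) and *Wnt2b* −1.32 ± 0.73 (0.7385). With the replicate block edgeR called *Wnt5a* (adjusted p = 0.02536), *Wnt4* (0.004115) and *Wnt2b* (0.01488). Small intestinal SMC also held more *Grem1*, at 320.1 and 470.3 CPM against 68.5 and 73.5 CPM in colon, and the 8 CD81+ markers summed to 105.4 and 1513 CPM against 188.6 and 267.7 CPM. The part of FB among cells of the SMC gate was not tested.

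**Figure D3:**
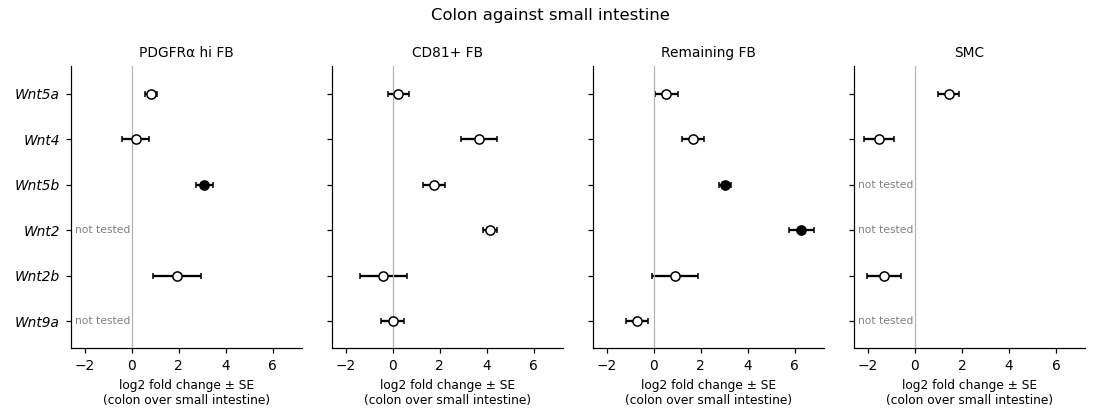
Log2 fold changes of colon over small intestine (x axes, ± SE) of the 6 ligands in 4 cell classes, from edgeR with 2 libraries per organ. Filled points passed an adjusted p of 0.05. These are *Wnt5b* in PDGFRαhi FB (3.08) and remaining FB (3.03) and *Wnt2* in remaining FB (6.27).

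Whether a class difference itself depends on the organ was tested as a class by organ term. For PDGFRαhi against CD81+ FB 12.6% of all genes passed in edgeR, and of the members *Wnt2b* did. Its deficit in PDGFRαhi FB was smaller in colon than in small intestine, with a difference of 2.20 ± 0.39 on the log2 scale (adjusted p = 0.001359). For CD81+ against remaining FB 3.05% of all genes passed, again with *Wnt2b* as the only member (−1.14 ± 0.18, adjusted p = 0.002509), which stood relatively higher in colonic remaining FB. Both calls were lost without small intestine replicate 1 (adjusted p = 0.08536 and 0.09277), and the small intestinal PDGFRαhi FB held 9 *Wnt2b* UMIs in all. *Wnt4* was called in neither term by the edgeR fit over 4 libraries, but was under other fits. For PDGFRαhi against CD81+ FB it was called by DESeq2 (−4.06, adjusted p = 0.001364) and by edgeR with no low count filter (2.713e-39), without colon replicate 1 (0.0001487) or without colon replicate 2 (7.394e-06). For CD81+ against remaining FB edgeR called it with no filter (4.316e-11) or without colon replicate 2 (0.00179). *Wnt5b* was called in both of these terms with no filter (3.255e-05 and 0.0001288) or without colon replicate 1 (0.001836 and 0.004469), and *Wnt2* in the second with no filter (0.009531). For PDGFRαhi against remaining FB 7.84% of all genes and no member passed by edgeR or DESeq2, and edgeR called 946 genes. At an unadjusted p under 0.05, *Wnt2b* (0.02164) did. *Wnt4* was called in this term by edgeR without colon replicate 1 (−1.39, adjusted p = 0.001502), without colon replicate 2 (−1.76, 0.0007553) and with no low count filter (8.428e-15).

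The balance of the groups was read as the log2 ratio of summed canonical CPM (*Wnt2*, *Wnt2b* and *Wnt9a*) to summed non-canonical CPM (*Wnt4*, *Wnt5a* and *Wnt5b*). In PDGFRαhi FB it was −5.82 and −7.91 in the small intestinal and −5.09 and −7.46 in the colonic libraries, far on the non-canonical side in 4 of 4 libraries. CD81+ FB were on the canonical side in small intestine replicate 1, at 1.85. They were near balance otherwise, at −0.26 in small intestine replicate 2 and 0.04 and −0.33 in the colonic libraries. Remaining FB lay between, at −0.16, −2.56, −0.60 and −3.03. The mean was −6.87 ± 1.48 (SD, n = 2) in small intestinal and −6.28 ± 1.68 in colonic PDGFRαhi FB, so that the organs differed by less than the spread of the libraries. Within each replicate number the colonic ratio of PDGFRαhi FB was the higher. In each of these classes replicate 2 was lower. Its *Wnt2b* level was lower in each class, and its *Wnt4* level was higher in PDGFRαhi and remaining FB. The part of each gene was not tested.

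The place of *Wnt4* decided the ratio in part of the classes. With *Wnt4* among the canonical ligands the ratio was −0.21, 0.53, −1.30 and −0.21 in PDGFRαhi FB, 1.91, 0.22, 1.85 and 1.04 in CD81+ FB, and 2.99, 2.03, 2.32 and 2.24 in remaining FB. Remaining FB then stood on the canonical side in 4 of 4 libraries, and PDGFRαhi FB were the lowest of the 3 FB classes in 3 of 4. The exception was small intestine replicate 2, in which CD81+ FB at 0.22 were below PDGFRαhi FB at 0.53.

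**Figure D4:**
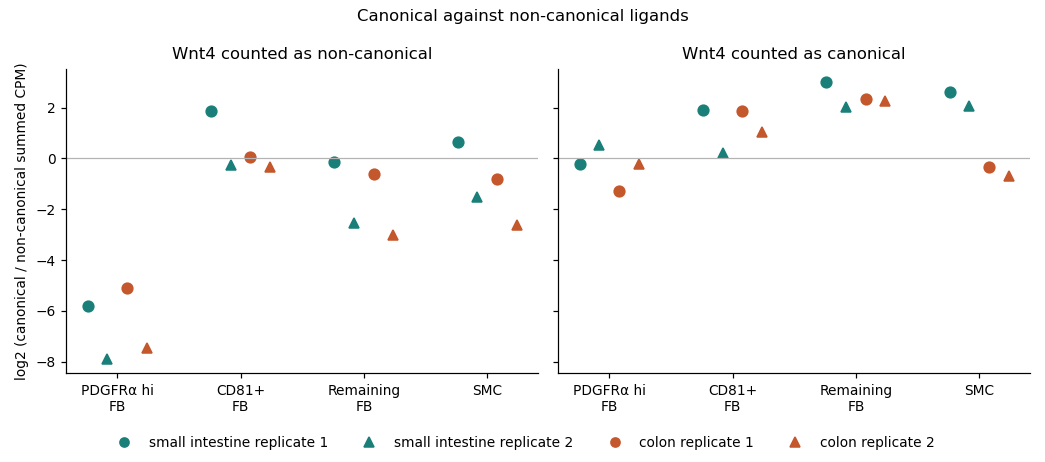
Log2 ratio of canonical to non-canonical summed CPM (y axis) by class (x axis), with *Wnt4* counted as non-canonical (left) or canonical (right). Points are the 4 libraries, and 0 marks equal sums. PDGFRαhi FB lie between −7.91 and −5.09 on the left, and remaining FB move from negative values to between 2.03 and 2.99 on the right.

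Clusters computed without any gene of the WNT lists showed how the ligands vary inside the classes. These values are descriptions, since clusters were formed from other genes of the same cells. Among small intestinal remaining FB, *Wnt4* was concentrated in cluster 2, which had the highest *Fgfr2* and was led by *Mmp10*, *P2rx1* and *Cxcl14*, with *Wnt4* itself among its 10 leading genes. It held 129.7 and 297.6 CPM there, against 2.71 and 12.8 CPM in cluster 0 and 3.22 and 18.6 CPM in cluster 1. In colon all 5 clusters of remaining FB held *Wnt4*, from 112.3 CPM to 636.9 CPM over clusters and libraries. Colonic cluster 7, led by *Cxcl9*, *Ces1g* and *Ccl8*, stood apart in that it held 0 and 1.56 CPM of *Wnt2*, against 43.4 and 38.1 CPM in cluster 2, led by *Stmn2* and *Edil3*, and 50.3 and 60.4 CPM in cluster 6. Immunoglobulin genes were among the leading genes of cluster 6.

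Splitting the remaining FB of each library by an *Fgfr2* UMI addressed the same pattern by 1 gene, and is a range rather than a type. *Wnt4* was at 81.6 CPM in cells with and 12.2 CPM in cells without an *Fgfr2* UMI in small intestine replicate 1, and at 172.6 and 70.5 CPM in replicate 2. In colon the values were 204.2 and 139.2 CPM, and 435.7 and 297.2 CPM. Cells with an *Fgfr2* UMI were higher in 4 of 4 libraries, with a log2 fold change of 0.86 ± 0.23 that did not pass (adjusted p = 0.2811). In this split 3.34% of 11348 genes were called and none of the 6 members by edgeR or DESeq2, and *Wnt4* alone among them had an unadjusted p under 0.05 (0.02571).

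Colonic PDGFRαhi FB were also uneven. Cluster 4, led by *Dmp1*, *Il1rl1* and *Spp1*, held 145.7 and 137.2 CPM of *Wnt5b*, 414.6 and 383.6 CPM of *Wnt5a* and 233.3 and 443.5 CPM of *Wnt4*. Cluster 1, led by *Wif1*, *Sox6* and *Bmp3*, held 48.0 and 44.4 CPM, 285.2 and 259.2 CPM, and 108.5 and 277.7 CPM of the same genes. *Wnt2b* ran the other way, at 23.3 and 6.0 CPM in cluster 1 and 0.847 and 0.160 CPM in cluster 4. Split by a UMI of *Thbd*, which encodes CD141, cells without one held 160.5 and 126.0 CPM of *Wnt5b* and cells with one 67.8 and 53.1 CPM. Split by *Cd9*, cells with a UMI were the higher, at 84.9 and 91.3 CPM against 61 and 39.9 CPM.

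**Figure D5:**
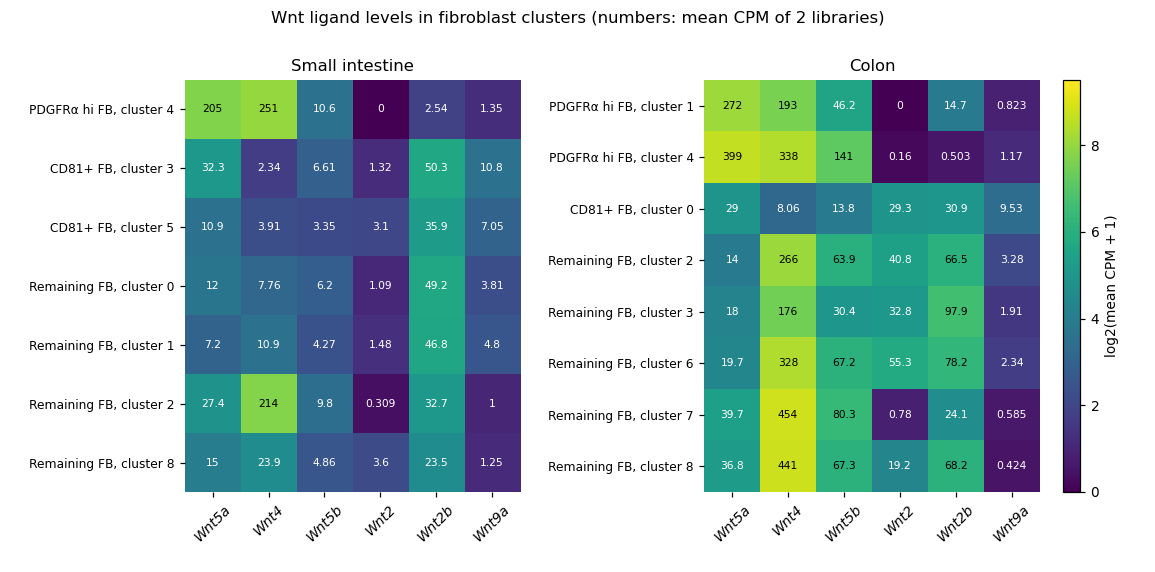
Mean level over 2 libraries of the 6 ligands (columns) in FB clusters (rows) of small intestine (left) and colon (right). Color gives log2(mean CPM + 1) and the printed numbers the mean CPM. *Wnt4* is at 214 CPM in small intestinal cluster 2 and at no more than 23.9 CPM in the other remaining FB clusters there, and *Wnt5b* is at 141 CPM in colonic PDGFRαhi cluster 4 and at 46.2 CPM in cluster 1.

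The other genes of the pathway were read from lists of ligands, secretion factors, receptors, secreted modulators and target or feedback genes. Of 13 further ligands 3 were high enough to be tested between FB classes, and *Wnt11*, which acts in the non-canonical branch, was called. It was at 12.4, 9.12, 8.90 and 22.9 CPM in CD81+ FB and at no more than 3.55 CPM in the other FB. Its log2 fold change was −3.21 ± 0.33 in PDGFRαhi against CD81+ FB (adjusted p = 3.311e-05) and 2.87 ± 0.29 in CD81+ against remaining FB (0.0002985). *Wnt6* and *Wnt16* were next, at mean levels of 2.49 and 1.07 CPM over FB. *Wls*, the carrier that brings WNT proteins to the cell surface, was at 105.0 to 288.1 CPM in all FB classes, and *Porcn*, which adds their lipid, at 7.63 to 23.9 CPM. Neither passed in a class contrast or an organ comparison. In the class by organ terms *Wls* was called for CD81+ against remaining FB (−0.68 ± 0.15, adjusted p = 0.01819), as was *Wnt6* (−4.53 ± 1.11, 0.0375), and both calls were lost without small intestine replicate 1 (adjusted p = 0.2103 and 0.09277). The *Wls* call was also lost without small intestine replicate 2 (0.2186) or colon replicate 2 (0.2064), and the *Wnt6* term turned to 2.05 (0.8929) without small intestine replicate 2.

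Among 16 receptors, 13 were tested, and between PDGFRαhi and CD81+ FB 3 were higher (*Ryk*, *Ror2* and *Fzd2*) and 5 lower (*Fzd1*, *Fzd4*, *Fzd5*, *Fzd7* and *Lrp6*) in PDGFRαhi FB. Over all genes 38.8% were called in this contrast, so that calls are common there. The *Fzd7* call was lost with no low count filter (adjusted p = 0.08639) and without small intestine replicate 1 (0.1341), small intestine replicate 2 (0.2384) or colon replicate 1 (0.107). The median log2 fold change of the receptors was −0.04, against 0.01 for all genes. *Ryk* (184.5, 358.6, 139.8 and 303.4 CPM in PDGFRαhi FB), *Fzd1* and *Fzd2* were the most abundant. *Ror2*, the co-receptor of *Wnt5a*, was at 100.2, 87.8, 62.0 and 32.3 CPM in PDGFRαhi FB and at 24.9, 22.4, 21.6 and 13.8 CPM in CD81+ FB (log2 fold change 1.38 ± 0.12, adjusted p = 1.157e-05). *Fzd1* was at 35.6, 39.6, 78.6 and 57.6 CPM in PDGFRαhi FB and at 189.3, 235.0, 185.1 and 122.9 CPM in CD81+ FB (−2.06 ± 0.29, adjusted p = 0.0008181). By edgeR no receptor was called between the organs in PDGFRαhi FB, CD81+ FB, remaining FB or SMC. In the class by organ terms 4 receptors were called for PDGFRαhi against CD81+ FB (*Fzd1*, *Fzd7* and *Ptk7* with a positive and *Fzd2* with a negative term), and each of them was also called for CD81+ against remaining FB, with a negative term. Over all genes 12.6% passed the first of these terms and 3.05% the second, and 7.84% passed the term of PDGFRαhi against remaining FB. For PDGFRαhi against remaining FB 3 receptors were called (*Fzd1*, with a positive, and *Fzd2* and *Fzd8*, with a negative term), and without small intestine replicate 2 the calls of *Fzd1* (adjusted p = 0.1317) and *Fzd8* (0.2995) were lost. The terms of *Fzd1* against CD81+ FB and of CD81+ against remaining FB were 1.59 (adjusted p = 1.249e-05) and −0.65 (0.02069). Of the 8 calls of the terms that involve CD81+ FB 6 were lost when 1 of the libraries was left out, among them all 4 for CD81+ against remaining FB, each of which was lost without small intestine replicate 1, small intestine replicate 2 or colon replicate 2.

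Of 15 secreted modulators found by symbol, 10 were tested between PDGFRαhi and CD81+ FB, where 2 were higher (*Wif1* and *Dkk3*) and 6 lower (*Sfrp1*, *Sfrp2*, *Sfrp4*, *Rspo1*, *Rspo2* and *Rspo3*). The share called over all genes was 38.8%. The *Sfrp2* call was lost by DESeq2 (adjusted p = 0.3147), with no low count filter (0.07312) and without small intestine replicate 2 (0.1173). *Wif1*, which binds WNT proteins outside the cell, was at 112.6, 54.5, 101.9 and 71.5 CPM in PDGFRαhi FB and at no more than 1.67 CPM in the other FB. *Sfrp1*, a soluble Frizzled relative, was the most abundant modulator, at 2135 and 2283 CPM in small intestinal and 511.1 and 391.1 CPM in colonic CD81+ FB. Between the organs 2 modulators were called, both in remaining FB, where 0.359% of all genes were called. *Sfrp2* held 0 and 2 UMIs in the small intestinal libraries and 114 and 559 in the colonic ones, a ratio of 305.7 per UMI summed (exact 95% counting interval 84.29 to 2529) with adjusted p = 0.03606. *Dkk2* had 86.7 and 85.4 CPM in small intestinal libraries against 2.03 and 1.20 CPM in colonic ones (−5.78 ± 0.34, 0.03606). Without small intestine replicate 2 the adjusted p was 0.1817 for *Sfrp2* and 0.1151 for *Dkk2*, and without replicate 1 it was 0.05716 for *Sfrp2*.

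Of 10 target and feedback genes 8 were tested between PDGFRαhi and CD81+ FB, with 3 higher (*Ccnd1*, *Nkd1* and *Lef1*) and 2 lower (*Apcdd1* and *Znrf3*) in PDGFRαhi FB. Among all genes 38.8% were called in that contrast. The *Nkd1* call was lost with no low count filter (adjusted p = 0.0545), with the stricter gate (0.06985) and without colon replicate 1 (0.1002) or 2 (0.08046), and the *Znrf3* call without colon replicate 1 (0.06494) or 2 (0.1432). *Axin2*, the most used readout of β-catenin signaling, was at a mean of 8.91 CPM over the FB classes and libraries, and was called in no contrast. *Lef1*, a β-catenin partner, held 0 UMIs in both small intestinal libraries of PDGFRαhi FB and 142 and 406 UMIs in colon, at least 39.2-fold higher against a floor of 3 counts over both libraries (adjusted p = 0.04344). That call was lost without small intestine replicate 1 (adjusted p = 0.0877) or 2 (0.1391), with doublets kept (0.05574) and with classes from clusters (0.05678).

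Genes of like pattern were sought over 16 profiles (3 FB classes and SMC in 4 libraries) by Pearson r of log2(CPM + 5). These profiles share libraries and depth, and r is given as a description. *Wnt2* was most like *Lsp1* (r = 0.926), *Thy1* (0.909), which encodes CD90, and *Stmn2* (0.895). *Wnt5a* was most like *Bpgm* (0.956), *Zdhhc14* (0.941) and *Ece1* (0.940), and *Wnt5b* like *Exosc8* (0.944), *Htra1* (0.943) and *Egr2* (0.930). *Wnt2b* was most like *Sepp1* (0.920), *Cyp2j9* (0.915) and *Nsa2* (0.881), *Wnt9a* like *Scara5* (0.899), *Prss23* (0.888) and *Sema3d* (0.883), and *Wnt4* like *Col27a1* (0.846), *Spry1* (0.840) and *Gramd4* (0.833). Among the members *Wnt2b* and *Wnt5a* ran most against each other (r = −0.80), and *Wnt4* and *Wnt5b* most together (0.55).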

How the data were processed

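Cell Ranger (3.0.2 or 3.1.0 per the file headers) was run by the authors against mm10, and the deposited matrices hold its UMI counts for each barcode, with no normalization. Seurat 3 is also named in the submitters' notes. Members, lists and tests were chosen with earlier results of these data known.

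Barcodes with at least 500 genes, 1000 UMIs and at most 10% mitochondrial UMIs were kept, and those with a scrublet score over 0.2 (scanpy 1.11.5) were removed as doublets (1.42% to 5.98%). The automatic threshold marked 1 barcode in small intestine replicate 2 and was replaced. Cells were gated by mean z-scores of log counts for PDGFRαhi (10 markers) and CD81+ FB (8 markers), at a cutoff of 0.5 and a margin of 0.25. Cells with markers of SMC, pericytes, endothelial, immune, plasma, epithelial, glial, mesothelial or Cajal cells were set apart first, and remaining FB were below 0.25 on both FB scores. Cells in none of these classes were left out of the tests. Clusters came from Seurat 5.3.0 (anchors within an organ, 2000 features, 30 components, resolution 0.5), and 79.2% to 96.4% of gated cells of a class lay in a cluster of the same name. Differences from the study may come from these rebuilt classes.

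Sums of counts over the cells of a class in a library were tested with edgeR 4.0.16 (quasi-likelihood, filterByExpr, TMM, robust), with Benjamini-Hochberg adjustment over all genes tested and calls at 0.05. Steps were tested on simulated data, where adjusted p-values of the organ fits were too small. In the organ fit of PDGFRαhi FB 6.67% to 21.1% of calls were false. Of the genes changed by 2 on the log2 scale it recovered 20% to 43.5%, so that a gene that did not pass may still differ. In the class fit of PDGFRαhi against remaining FB 4.1% to 6.97% of calls were false, and 91% to 94% of such changes were recovered. Intervals are exact binomial and cover counting error only. Named genes are the 6 members and genes of the pathway lists that were called or among the 3 highest of their list. Genes of like pattern were the 3 with the highest r at a mean of at least 10 CPM, gate markers left out. Alternatives were DESeq2 1.42.0, no low count filter, a replicate block, 1000 genes per cell, doublets kept, a stricter gate, cluster-based classes, thinned cells, *Wnt4* as canonical, each library left out and, added after seeing the data, clusters in place of the *Fgfr2* split.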

Additional observations from a re-analysis of the deposited data

Results flagged for a closer look

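*Wnt2b* differed between the organs in its class pattern. Its difference between PDGFRαhi and CD81+ FB was 2.20 higher on the log2 scale in colon than in small intestine, by a test of the difference itself, and its difference between CD81+ and remaining FB was −1.14 (colon minus small intestine). Both were lost without small intestine replicate 1, and the replicate step of *Wnt2b* given above runs through all of these classes.

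*Wnt2* also appeared in cells outside the comparisons. In small intestine replicate 1 the cells of the endothelial gate, which should have been removed by the CD31 sort, held *Wnt2* at 51.6 CPM, and 83 of the 95 *Wnt2* UMIs of that library (87.4%). The FB of that library held 8 UMIs. The signal lay in cluster 9, of which 85 cells from that library were in the endothelial gate. These cells held *Wnt2* at 177.9 CPM, with *Lyve1* (a hyaluronan receptor) at 3044 CPM and *Dcn* (an FB marker) at 18.2 CPM, and 45 of them had a *Wnt2* UMI (52.9%, exact 95% interval 41.8 to 63.9). In the other endothelial cluster of the library 0 of 248 cells had one, which allows a share of up to 1.48%. Leading genes of cluster 9 were *Ccl21a*, *Lyve1* and *Mmrn1*, but also *Reg3b*, *Rbp2* and *Fabp2*. Colonic cluster 14 shared *Ccl21a*, *Lyve1* and *Mmrn1* among its leading genes. Its cells in the endothelial gate had a *Wnt2* UMI in 2 of 61 cells of replicate 1. Replicate 2 libraries held 1 endothelial-gate cell of these clusters in all. The difference between the organs was not tested, since it rests on 1 library each.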

How the results depend on the processing

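With 2 libraries per organ, counts of genes called between organs moved most. By DESeq2 they were 573 in PDGFRαhi FB, 279 in CD81+ FB, 418 in remaining FB and 137 in SMC, and with no low count filter 677, 354, 268 and 191. With doublets kept 99 genes were called in PDGFRαhi FB, with a stricter gate 60 in CD81+ FB, and with classes from clusters 105 in CD81+ FB, 128 in remaining FB and 286 in SMC. DESeq2 called 207 genes in the class by organ term of CD81+ against remaining FB and 161 in the *Fgfr2* split, and with no filter the counts were 838 and 644. *Fgfr2*-high against *Fgfr2*-low clusters, chosen after seeing the data, gave 636, with *Wnt5b* reversed to −0.02 and *Wnt5a* to 0.94. Reversed between organs in CD81+ FB were *Wnt5a* with classes from clusters (−0.02) and *Wnt9a* with the stricter gate (0.07), and the *Wnt2* class by organ term of PDGFRαhi against CD81+ FB was −2.23 by DESeq2. None of these reversed results was called in the reported edgeR fits, while between the *Fgfr2* clusters edgeR called *Wnt5a* (adjusted p = 0.02788) and *Wnt2* (−0.93, 0.02552). The cause was not tested.

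With *Wnt4* counted as canonical the log2 ratio was 0.16 in PDGFRαhi FB of small intestine and −0.76 in colon, 1.45 in colonic CD81+ FB, 2.51 and 2.28 in remaining FB, and 2.34 in small intestinal SMC. In colonic CD81+ FB it was 0.43 with the stricter gate and 0.48 with classes from clusters.

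Labels tie the replicate numbers to no batch, and only 2 pairs exist. Deviations of same-numbered libraries correlated at 0.800 in PDGFRαhi FB, 0.749 in CD81+ FB, 0.803 in remaining FB and 0.530 in SMC. With a replicate block 2754, 958, 1866 and 738 genes were called between organs. The block also added member calls, with fold changes of the same direction. These were *Wnt5a* (adjusted p = 8.688e-05) and *Wnt2b* (0.003351) in PDGFRαhi FB, *Wnt2* (6.961e-05) and *Wnt5b* (0.01734) in CD81+ FB, *Wnt4* (2.126e-05) and *Wnt2b* (0.04309) in remaining FB, and *Wnt5a* (0.02536), *Wnt4* (0.004115) and *Wnt2b* (0.01488) in SMC.

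Leaving out 1 library gave 0 to 428 calls between organs in PDGFRαhi FB, 0 to 214 in CD81+ FB, 0 to 188 in remaining FB and 9 to 125 in SMC. Between classes the counts were 3568 to 4036 (PDGFRαhi and CD81+ FB), 2127 to 2688 (PDGFRαhi and remaining FB) and 595 to 809 (CD81+ and remaining FB), and in the matching class by organ terms 622 to 1444, 313 to 864 and 63 to 520. In the *Fgfr2* split they were 205 to 306. Signs turned between organs for *Wnt4* in PDGFRαhi FB (−0.66 to 0.75), *Wnt2b* (−2.09 to 0.96), *Wnt5a* (−0.44 to 0.66) and *Wnt9a* (−0.84 to 0.41) in CD81+ FB, and *Wnt2b* in remaining FB (−0.78 to 1.96). Signs also turned in class by organ terms, for *Wnt9a* in all 3 (−1.47 to 0.28, −0.53 to 0.69 and −0.40 to 1.40), *Wnt5b* (−0.51 to 0.54) and *Wnt5a* (−0.31 to 0.74) for PDGFRαhi against remaining FB, and *Wnt6* for CD81+ against remaining FB (−4.99 to 2.05). *Wnt5a* ran from −0.33 to 0.01 in the *Fgfr2* split.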
